A study of Mus musculus with 7 samples.

Results

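The α-cell identity genes considered here are Gcg, Irx1, Irx2, Pou3f4, Ttr, Gc and Dpp4, 7 genes that mark glucagon-producing islet cells in the mouse. Their members are all chromatin regions that the deposited annotation assigns to one of these symbols, which gave 24 regions of the 61288 listed. Gc held 14 of them, Dpp4 held 5, and Gcg, Irx1, Irx2, Pou3f4 and Ttr held 1 each. ATAC-seq, in which Tn5 transposase cuts open DNA, was run on nuclei of Tomato+ β cells sorted from islets of male mice, with 4 Control libraries and 3 libraries without CHD3 and CHD4 (labelled Chd3-4Db, here Chd3/4Δβ). CHD3 and CHD4 are ATP-dependent remodelers that serve as alternative motor subunits of the NuRD complex. Chd3/4Δβ mice carried Chd3 fl/fl and Chd4 fl/fl alleles, and Controls were Chd3+/+ Chd4+/+. Both groups carried MIP-CreERT, an inducible Cre driven by an insulin promoter, and a Cre-dependent R26 LSL-tdTomato reporter, and both received oral tamoxifen from 4 to 6 weeks of age. The sorted population is therefore defined by past insulin promoter activity and by recombination of the reporter, not by recombination of Chd3 or Chd4. The sources used here do not give the strain, the age at collection for ATAC-seq or whether each replicate is a separate animal. The p-values therefore reflect the spread among these libraries only, some of which may be technical.

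α and β cells arise from shared endocrine progenitors, and the choice between them is set by opposing transcription factors, among them PAX4, PDX1 and NKX6-1 on the β side. Mature α cells secrete glucagon when glucose is low, and β cells normally keep many genes of the α programme silent. The 7 genes cover the hormone itself (Gcg), 3 transcription factors (Irx1, Irx2, Pou3f4), 2 carrier proteins that α cells secrete (Ttr, Gc) and a surface protease that inactivates incretins (Dpp4).

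Accessibility is given as CPM, the count of a region scaled by the size of its library. The listed regions took 48.1 to 49.6% of each library size. Library sizes ran from 17629713 to 42439029 in Control and from 17772951 to 44026681 in Chd3/4Δβ, so that each group held deep and shallow libraries. The column names give Control replicates 1 to 3 a shared lane label and Chd3/4Δβ replicate 3 a different one, while Control replicate 4 and Chd3/4Δβ replicates 1 and 2 have none. Every Control name also begins with a prefix that no Chd3/4Δβ name carries, so whatever this prefix marks cannot be told apart from genotype. What these labels stand for is not stated, and their part in the results was not tested. Control replicate 4, which has no lane label, lay close to the other Controls at Gcg (10.4 CPM) and Irx2 (0.259 CPM). It stood apart from them at the Gc regions 58028 and 93605 bases from the nearest annotated transcription start. At the first it measured 6.27 CPM, beside 3.12 to 4.34 in the other Controls and 5.9 to 8.95 in Chd3/4Δβ. At the second it measured 2.45 CPM, beside 0.923 to 1.63 and 2.18 to 3.77. The table lists only regions that the authors called different at an FDR under 0.05, 55.9% of the 109675 they tested. Every member had therefore already been selected on the contrast reported here, and regions of these genes that were not listed were not analysed here.

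To be called, a region needed both an adjusted p under 0.05 in the edgeR quasi-likelihood test and a log2 fold change, Chd3/4Δβ over Control, of at least 1 in size. By this rule 12 of the 24 member regions were higher, 4 were lower and 8 were neither. Among all listed regions 37% were called higher and 20.4% lower, beside 50% and 16.7% of the members. Without the fold threshold 17 members were higher and 7 lower, beside 52.6% and 44.9% of all listed regions. The median log2 fold change was 1.04 over the members and 0.56 over all listed regions. Gc weighs heavily in these member values. It supplied 8 of the 12 higher regions and 2 of the 4 lower ones, and its own median was 1.26. Among the 10 regions of the other genes, those called higher were Irx2, Pou3f4 and 2 of Dpp4. Those called lower were Gcg and 1 of Dpp4. All Chd3/4Δβ libraries lay above all Control libraries in 15 member regions (background 49.3%) and below them in 7 (background 38.8%), and the groups overlapped in 2, both of them distal Gc regions. The direction was divided both between and within genes. The Irx2 and Pou3f4 regions were higher and the Gcg region lower, Gc had 8 higher and 2 lower regions, Dpp4 had 2 higher and 1 lower, and Irx1 and Ttr had negative fold changes that did not reach the fold threshold.

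**Figure D1:**
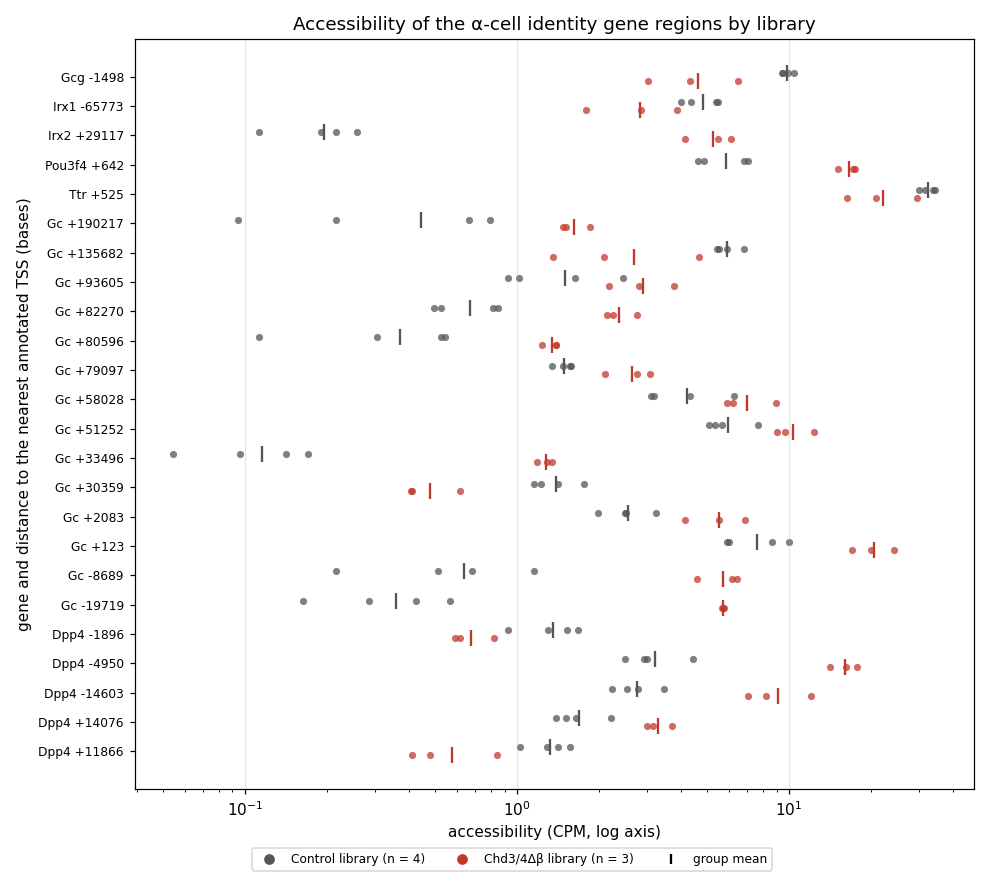
Accessibility of the 24 regions in each library, in CPM on a log axis. Grey points are the 4 Control libraries, red points the 3 Chd3/4Δβ libraries and bars the group means; each region is named by its gene and its distance in bases to the nearest annotated transcription start site (TSS). Irx2 moves from 0.195 to 5.25 CPM, while Gcg moves from 9.82 to 4.62 CPM.

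The intergenic members came mostly from Gc. Of the 24, 15 were intergenic, 6 intronic, 2 exonic and 1 at a promoter, so that 62.5% were intergenic beside 32.3% of all listed regions. Gc supplied 12 of these 15, and the other genes 3 intergenic regions among 10. Their median distance to the nearest annotated TSS was 24400 bases, against 9560 bases over all. Median widths were similar, 872 bases for members and 763 for all listed regions.

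Proximal sequence is shown for the 3 members whose change at or beside the gene start the results turn on: Gcg, which lost accessibility upstream, and Pou3f4 and Gc, which gained it over the start. Each line holds the 250 bases that end immediately before the RefSeq transcript start (GRCm38.p6, coding strand, 5′ to 3′). Capitals mark matches, on either strand, to short motifs chosen with these sequences in view. The homeodomain core TAAT occurs in 54.9% of 32841 mouse windows of this length. For forkhead factors TATTTAC was searched (2.73% of windows) and so was a second form, TGTTTAC (3.17%). The HNF1 core GTTAAT, which contains a TAAT core, is in 6.43% of windows. The TATA box was searched as TATAAA (12.4% of windows) and the CCAAT box by the letters of its name (33.9%). The E-box CANNTG (66.2% of windows) was also searched and is not marked. Matches of different motifs can overlap, and a match describes letters and not binding.
Gcg, chr2:62483654-62483903, minus strand: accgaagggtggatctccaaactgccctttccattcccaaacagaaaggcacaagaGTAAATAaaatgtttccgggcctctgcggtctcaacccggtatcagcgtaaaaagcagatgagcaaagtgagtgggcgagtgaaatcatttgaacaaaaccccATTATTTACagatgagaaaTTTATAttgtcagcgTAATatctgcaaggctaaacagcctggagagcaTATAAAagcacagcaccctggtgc
Pou3f4, chrX:110814129-110814378, plus strand: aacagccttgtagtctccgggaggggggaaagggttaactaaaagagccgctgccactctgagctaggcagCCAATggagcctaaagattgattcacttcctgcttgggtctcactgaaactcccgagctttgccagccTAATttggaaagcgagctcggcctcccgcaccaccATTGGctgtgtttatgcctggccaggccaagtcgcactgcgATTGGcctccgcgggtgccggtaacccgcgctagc
Gc, chr5:89457899-89458148, minus strand: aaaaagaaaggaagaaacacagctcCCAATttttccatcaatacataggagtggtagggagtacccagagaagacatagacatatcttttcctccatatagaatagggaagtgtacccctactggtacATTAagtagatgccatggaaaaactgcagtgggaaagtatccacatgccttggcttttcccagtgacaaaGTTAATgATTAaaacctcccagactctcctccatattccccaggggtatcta
RefSeq promoter windows were found for 5 of the 7 genes. The windows of Pou3f4 and Gc lay inside the regions described below, whereas the Gcg window lay 889 bases from the nearest listed region and the Dpp4 window 11855 bases from one. The Gcg window held 2 TATTTAC matches, starting 194 and 89 bases before the transcript start, and 2 TATA boxes, the nearer one 24 to 19 bases before it. The Gc window held 1 HNF1 core, 52 to 47 bases before the start, and 1 CCAAT box. HNF1 factors are known in mammals for driving liver and islet genes. The Pou3f4 window held 3 CCAAT boxes and 1 TAAT core, and neither a forkhead match nor a TATA box.

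Gcg encodes preproglucagon, the precursor of glucagon and of the glucagon-like peptides. Its single listed region, 714 bases at chr2:62484792-62485505, lies upstream of the gene, 1498 bases before the annotated TSS. In Control the region measured 9.93, 9.5, 9.42 and 10.4 CPM, and in Chd3/4Δβ 3.04, 4.34 and 6.47 CPM. The 4 Control libraries were tightly grouped and all above the 3 Chd3/4Δβ libraries, which were spread over a wider range with replicate 1 lowest and replicate 3 highest. Means were 9.82 ± 0.469 (SD, n = 4) and 4.62 ± 1.73 (SD, n = 3), a log2 fold change of -1.13 (SE 0.214, adjusted p = 0.000128 by edgeR). The call needs Chd3/4Δβ replicate 1, without which the value was -0.89 and short of the fold threshold. Per kilobase the region stood at percentile 88.2 of all listed regions in Control and at percentile 63.2 in Chd3/4Δβ, so it was among the more accessible listed sites in Control Tomato+ cells.

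The listed regions whose profile over the 7 libraries was most like that of the Gcg region were found among 12772 regions within 2000 bases of a TSS. The 5 closest were those of Rock2 (Pearson r = 0.9969), Clk4 (0.9966), BC060293 (0.9966), Gm47483 (0.9963) and Lrrc55os (0.9962). In all, 603 of these regions (4.72%) had an r above 0.95, and all points share the same libraries and the same group difference. None of the 5 is among the genes of the other α-cell list, which tells little. Slc38a5 and Rgs4 of that list have no listed region within 2000 bases of a TSS and could not appear.

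Gcg lies next to Dpp4 on chromosome 2, and 5 other listed regions fell within 100000 bases of the Gcg start. Past the 3′ side of Gcg, a region assigned to Gm13564 went from 6.61 ± 1.26 to 12.9 ± 2.82 CPM (log2 fold change 0.95, adjusted p = 0.000199 by edgeR), just short of the fold threshold. The promoter region of Gm13565 went from 12.9 ± 1.92 to 16.6 ± 1.26 CPM (0.36, adjusted p = 0.0554), which did not pass the test. The other 3 were intronic Dpp4 regions, described with that gene. Thus the region upstream of Gcg and its nearest listed neighbours on the other side of the gene had fold changes of opposite sign.

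**Figure D2:**
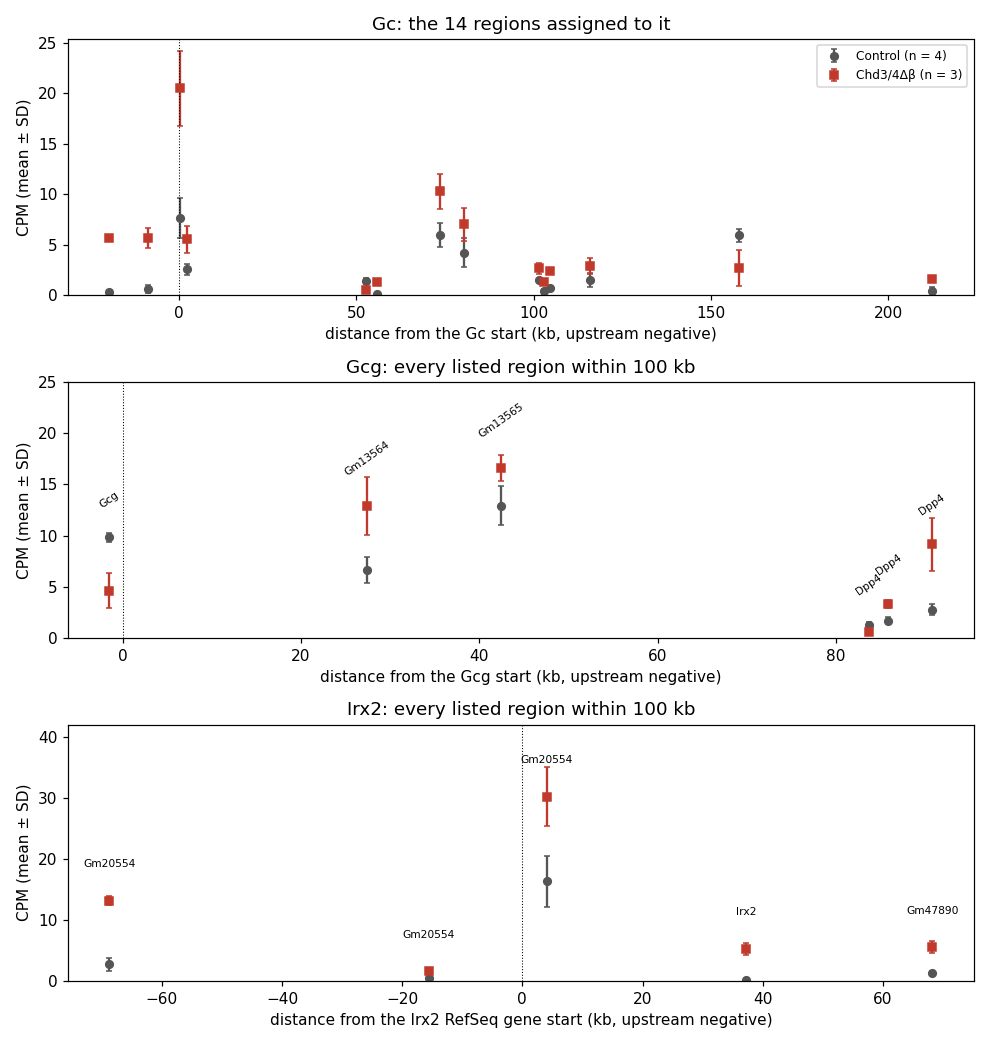
Mean CPM ± SD by distance from the gene start in kilobases (upstream negative) for Gc, Gcg and Irx2. Grey circles are Control (n = 4) and red squares Chd3/4Δβ (n = 3); names in the lower panels are the symbols the deposited annotation gives each region. At Irx2 the tallest region, near the start, carries the symbol Gm20554 and rises from 16.3 to 30.2 CPM.

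Irx1 and Irx2 are Iroquois homeodomain factors, neighbouring genes that are expressed in developing α cells of the mouse. Their listed regions moved in opposite directions. The Irx1 region, chr13:72028813-72030179, is intergenic and 65773 bases upstream of the gene. It measured 4.37, 5.48, 4.02 and 5.37 CPM in Control and 1.79, 2.85 and 3.88 CPM in Chd3/4Δβ. Every Chd3/4Δβ library was below every Control library, though replicate 3 came within a small margin of the lowest Control. Means were 4.81 ± 0.728 and 2.84 ± 1.04, a log2 fold change of -0.80 (SE 0.251, adjusted p = 0.00967 by edgeR), which was under the fold threshold. It passed the threshold without Chd3/4Δβ replicate 3 (-1.06), and also with TMM (-1.02) or RLE (-1.11) factors.

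The Irx2 region, 912 bases at chr13:72661259-72662170, is intergenic and lies past the 3′ end of the gene, 29117 bases from the nearest annotated TSS. It held 0.113, 0.217, 0.191 and 0.259 CPM in Control, and 5.47, 6.11 and 4.16 CPM in Chd3/4Δβ. These Control values rest on 2, 4, 4 and 11 counts, against 241, 238 and 74 counts in Chd3/4Δβ, so the Control level is close to nothing and its exact size is poorly determined. The log2 fold change was 4.64 (SE 0.323, adjusted p = 1.19e-10 by edgeR), the largest of the 24 regions, and it stayed between 3.09 and 4.88 in every refit. Per kilobase this region rose from percentile 0.2 of listed regions in Control to percentile 58.7 in Chd3/4Δβ.

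The deposited symbol did not capture the other regions around Irx2. The RefSeq Irx2 promoter window, chr13:72628570-72628819, falls inside a listed region at chr13:72627425-72629526 that the annotation gives to the neighbouring Gm20554. That region went from 16.3 ± 4.22 to 30.2 ± 4.77 CPM (a log2 change of 0.88 with an SE of 0.165 and, by edgeR, an adjusted p of 0.000111), an increase that passed the test and not the fold threshold. Within 100000 bases of the Irx2 gene start there were 5 listed regions, of which 1 carried the symbol Irx2, and 4 were called higher and 0 lower. Besides the distal Irx2 region these were 2 assigned to Gm20554 and 1 assigned to Gm47890. The first Gm20554 region went from 2.74 ± 1.08 to 13.1 ± 0.734 CPM (2.21), the second from 0.489 ± 0.0692 to 1.6 ± 0.426 CPM (1.70), and the Gm47890 region from 1.35 ± 0.194 to 5.52 ± 0.984 CPM (2.03). The adjusted p of these 3 were 4.18e-08, 0.000119 and 2.46e-07 by edgeR. Around Irx1, by contrast, its own region was the single one listed within 100000 bases of the gene start.

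Pou3f4 (also called Brn4) is a POU-homeodomain factor of early α-cell development in the mouse that can bind the glucagon promoter. Its region, 1641 bases at chrX:110814102-110815742, spans the start of this single-exon gene and includes the promoter window printed above. Control libraries measured 4.88, 4.61, 7.08 and 6.83 CPM, and Chd3/4Δβ libraries 15.1, 17.5 and 17.2 CPM. The groups were far apart, with the lowest Chd3/4Δβ library above the highest Control library by more than the whole Control range. Means were 5.85 ± 1.28 and 16.6 ± 1.3, a log2 fold change of 1.49 (SE 0.178, adjusted p = 3.27e-07 by edgeR). It was the single listed region within 100000 bases of the gene start, and it was called higher in every refit (1.18 to 1.61).

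Ttr encodes transthyretin, a carrier of thyroid hormone and, through retinol-binding protein, of vitamin A. Its region, 1836 bases at chr18:20664888-20666723, is classed as a promoter and overlaps both Ttr and Gm16090. In Control it measured 31.6, 30, 34.5 and 33.8 CPM, and in Chd3/4Δβ 16.3, 20.8 and 29.5 CPM. Control libraries were the higher ones throughout, but Chd3/4Δβ replicate 3 came close to the lowest of them. Means were 32.5 ± 2.05 and 22.2 ± 6.74, and the log2 fold change was -0.56 (SE 0.154, adjusted p = 0.00402 by edgeR), so the region was below Control without reaching the fold threshold in any refit (-0.86 to -0.38). Per kilobase it was the most accessible member in Control, at 17.7 CPM per kilobase and percentile 90.9 of listed regions. Of the 6 other listed regions within 100000 bases of the Ttr start, 3 were called higher and 1 lower. The largest of the gains was at the termination site of Gm10269, from 0.709 ± 0.595 to 4.39 ± 0.643 CPM (2.45, adjusted p = 2.42e-05 by edgeR), and the loss was in an intron of Dsg2 (-1.36, adjusted p = 0.000904).

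Gc encodes the vitamin D-binding protein, a plasma protein of liver origin that α cells also express. With 14 regions it was the most heavily represented of the 7 genes: 8 were higher, 2 lower and 4 neither, and the median log2 fold change was 1.26. Summed over the 14, accessibility was 32.8, 29.7, 35 and 35.7 CPM in Control and 60.5, 69.1 and 80.8 CPM in Chd3/4Δβ. Every Chd3/4Δβ sum exceeded every Control sum, with replicate 3 the highest. These sums cover only listed regions, each selected for a group difference, and the 8 called higher held 44.1 of the mean 70.1 CPM in Chd3/4Δβ.

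The start of Gc gained accessibility. The region over exon 1, 888 bases at chr5:89457332-89458219, contains the promoter window printed above with its HNF1 core. It measured 6.01, 5.92, 9.99 and 8.65 CPM in Control and 17.1, 20 and 24.4 CPM in Chd3/4Δβ. No Control library reached the level of any Chd3/4Δβ library, and means were 7.64 ± 2.01 and 20.5 ± 3.7. The log2 fold change was 1.41 (SE 0.187, adjusted p = 1.52e-06 by edgeR), and the call held in every refit. Per kilobase this was the most accessible member in Chd3/4Δβ, with 23.1 CPM per kilobase against 8.61 in Control. Inside intron 1, at 2083 bases past the start, a smaller region went from 2.56 ± 0.521 to 5.53 ± 1.37 CPM (log2 fold change 1.12, adjusted p = 0.00032), a call that was lost with TMM (0.91) or RLE (0.80) factors, with cyclic loess (0.96), with a depth term (1.00) and without Chd3/4Δβ replicate 2 (0.93).

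Both regions upstream of Gc were nearly closed in Control. At 19719 bases upstream (chr5:89477308-89477926) the 4 Control libraries held 0.567, 0.163, 0.287 and 0.424 CPM and the 3 Chd3/4Δβ libraries 5.75, 5.67 and 5.74 CPM. The Chd3/4Δβ libraries were almost identical, and the log2 fold change was 3.94 (SE 0.302, adjusted p = 5.04e-10 by edgeR), the highest of the Gc regions. At 8689 bases upstream (chr5:89466238-89466937) the values were 0.511, 0.217, 1.15 and 0.683 CPM in Control and 4.57, 6.16 and 6.41 CPM in Chd3/4Δβ, again with a wide gap between groups. Here the log2 fold change was 3.11 (SE 0.32, adjusted p = 4.18e-08 by edgeR). Further upstream, the promoter region assigned to Gm6366 was higher as well, from 2.74 ± 0.793 to 8.36 ± 0.706 CPM (1.57, adjusted p = 2.81e-06). An intronic region of Npffr2 beyond it had a log2 fold change of -0.75 and was not called.

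The other 10 Gc regions lie past the 3′ end of the gene, and their distances are to the start of a shorter Gc transcript. They were mixed: 4 were higher, 2 lower and 4 neither. The lowest value was that of the region at +30359 (chr5:89405111-89405427), with 1.76, 1.41, 1.15 and 1.23 CPM in Control and 0.409, 0.411 and 0.619 CPM in Chd3/4Δβ. All Control libraries were above all Chd3/4Δβ libraries, and the log2 fold change was -1.57 (SE 0.333, adjusted p = 0.000405 by edgeR). The adjacent listed region at +33496 (chr5:89401978-89402286) moved the other way, from 0.17, 0.0543, 0.0956 and 0.141 CPM to 1.29, 1.18 and 1.35 CPM. Control held just 3, 1, 2 and 6 counts there, and the log2 fold change of 3.36 (SE 0.392, adjusted p = 2.45e-07 by edgeR) was lost with cyclic loess (-0.18, adjusted p = 1 by limma).

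Of the remaining downstream Gc regions, those at +82270 (log2 fold change 1.87, adjusted p = 2.9e-05), +80596 (1.86, 0.00017) and +190217 (2.00, 0.000693) were higher. With cyclic loess the call at +80596 was lost (-0.12, adjusted p = 1 by limma), as was that at +190217 (0.30). The region at +135682 was lower, with 6.81, 5.92, 5.45 and 5.54 CPM in Control and 1.36, 2.08 and 4.67 CPM in Chd3/4Δβ (-1.21, SE 0.299, adjusted p = 0.00182). Without Chd3/4Δβ replicate 1 its value was -0.87 and it was not called. The 4 regions called neither way, at +93605, +79097, +58028 and +51252, had log2 fold changes of 0.69 to 0.86 with adjusted p of 0.00118 to 0.0239, and the 2 regions in which the groups overlapped, +93605 and +58028, were among them. The region at +93605 was called higher with the replicate block (1.30), or when either Control replicate 4 (1.25) or Chd3/4Δβ replicate 1 (1.04) was left out.

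**Figure D3:**
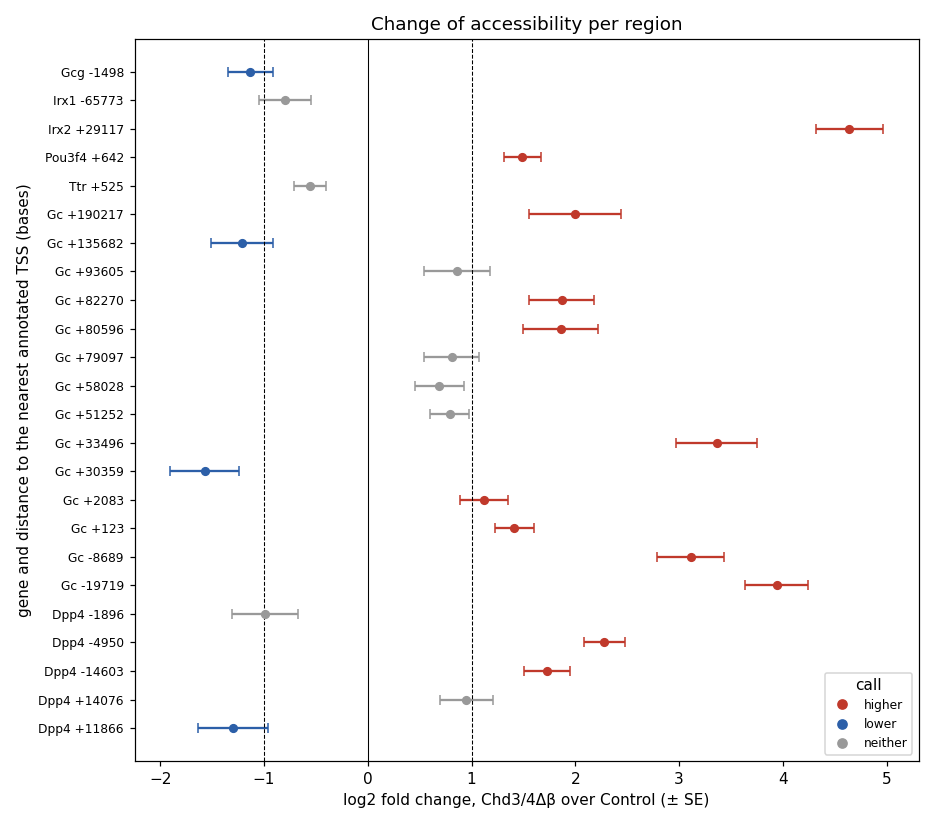
Log2 fold change of each member region, Chd3/4Δβ over Control, with its standard error from edgeR. Red points were called higher (12), blue points lower (4) and grey points neither (8), and dashed lines mark the fold threshold; the largest gains are Irx2 (4.64) and Gc at -19719 (3.94).

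Dpp4 encodes dipeptidyl peptidase 4, a serine protease that trims GLP-1 and GIP. All 5 of its regions are intronic, and each distance is to the start of one of several shorter Dpp4 transcripts. Summed, they held 10.9, 9.44, 9.8 and 11.2 CPM in Control and 25.3, 28.8 and 34.9 CPM in Chd3/4Δβ. The Chd3/4Δβ sums lay far above the narrow Control range, but they cover only listed regions, each selected for a group difference. In Chd3/4Δβ the 2 regions called higher held 25.2 of the mean sum of 29.7 CPM. Within the gene the 5 regions split: 2 were higher, 1 was lower and 2 were neither.

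The Dpp4 region with the highest mean CPM and the largest change, chr2:62382633-62383763, lies 29117 bases past the RefSeq start. It measured 3.01, 2.5, 2.92 and 4.43 CPM in Control and 14.2, 16.2 and 17.7 CPM in Chd3/4Δβ. The groups were widely separated, and the log2 fold change was 2.28 (SE 0.195, adjusted p = 2.67e-09 by edgeR). The region at chr2:62392329-62393374 measured 2.78, 3.47, 2.53 and 2.24 CPM in Control and 7.09, 8.26 and 12 CPM in Chd3/4Δβ, also without overlap. Its log2 fold change was 1.73 (SE 0.222, adjusted p = 9.22e-07 by edgeR).

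In the same first intron, nearer to the RefSeq Dpp4 start, accessibility fell at chr2:62399610-62400377, from 1.42, 1.03, 1.29 and 1.56 CPM to 0.477, 0.411 and 0.844 CPM. No library of one group reached the range of the other, and the log2 fold change was -1.30 (SE 0.338, adjusted p = 0.00247 by edgeR), the lowest of the Dpp4 regions. The neighbouring region at +14076 had a log2 fold change of 0.95 (SE 0.254, adjusted p = 0.00309), and was called with a depth term (1.01) or without Control replicate 1 (1.09) or Chd3/4Δβ replicate 1 (1.02). The region nearest to an annotated Dpp4 TSS, in intron 22 of 25 at chr2:62346854-62347231, measured 1.53, 0.923, 1.67 and 1.3 CPM in Control and 0.591, 0.821 and 0.619 CPM in Chd3/4Δβ. The groups did not overlap, and the log2 fold change of -0.99 (SE 0.322, adjusted p = 0.0129) fell just short of the threshold, which it passed in 6 of 14 refits.

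The order of the Chd3/4Δβ libraries recurred across members. Of the 7 member regions with an adjusted p under 0.05 and a negative fold change, replicate 3 had the highest of the 3 Chd3/4Δβ values in 6 (85.7%), beside 56.9% of the 27489 such regions overall. Among the 17 with a positive fold change it was highest in 11 (64.7%), beside 27.7% of all 32244 such regions. Replicate 3 is also the shallowest of the Chd3/4Δβ libraries and the only one of them with a lane label. These traits cannot be told apart here, and their part in this order was not tested.

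Regions of other α-cell identity genes were called about as often as listed regions in general. Of 6 further genes, 4 had listed regions (Fap and Smarca1 did not), and of their 14 regions 5 were higher, 3 lower and 6 neither (median log2 fold change 0.66, against 0.56 over all). That is 35.7% higher and 21.4% lower, beside 37% and 20.4% of all listed regions. Slc38a5, the amino acid transporter that α cells use to respond to glutamine, went from 0.525 ± 0.131 to 2.9 ± 0.503 CPM at its region nearest the TSS (2.41, adjusted p = 9.35e-07 by edgeR). Slc7a2, a cationic amino acid transporter, went from 32.5 ± 4.92 to 24.9 ± 1.52 CPM near its start (-0.39, adjusted p = 0.0144), short of the fold threshold, while a region further in was higher (1.66, adjusted p = 0.000316). Of its 6 listed regions, 1 was called higher and 2 lower. A distal region of Rgs4, a regulator of G protein signalling, was also higher, from 0.272 ± 0.145 to 1.28 ± 0.205 CPM (2.20, adjusted p = 3.18e-05). The largest loss was 14803 bases upstream of Sstr2, a somatostatin receptor, from 2.27 ± 0.394 to 0.269 ± 0.0569 CPM (-3.02, adjusted p = 2.56e-07). Its promoter region went the other way, from 8.85 ± 1.16 to 13.7 ± 4.46 CPM (0.65, adjusted p = 0.00686 by edgeR), short of the fold threshold. Of the 3 Sstr2 regions, 1 was called higher and 1 lower.

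The remaining Iroquois genes Irx3 to Irx6 all had listed regions, 7 in number, of which 4 were higher (57.1%, beside 37% of all listed regions) and 1 lower (14.3%, beside 20.4%), with a median of 1.11. The region at the start of Irx3 went from 4.17 ± 0.77 to 16.6 ± 5.15 CPM (1.99, adjusted p = 5.29e-08 by edgeR).

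Most regions of the glucagon gene's activators were called neither way. The 6 activators of Gcg that were examined (Pax6, Isl1, Foxa1, Foxa2, Cdx2 and Neurod1) held 16 regions, of which 1 was higher, 1 lower and 14 neither, with a median of -0.43. The share called neither way was 87.5%, beside 42.6% of all listed regions. The promoter region of Pax6, which binds the glucagon promoter and is shared by α and β cells, went from 131 ± 7.23 to 101 ± 21.2 CPM (-0.38, adjusted p = 0.00562 by edgeR), and that of Foxa2, a forkhead factor, from 68.5 ± 2.72 to 54.5 ± 5.54 CPM (-0.33, adjusted p = 0.00768). Neither reached the fold threshold. The largest change in this list was at +14696 of Isl1, from 0.23 ± 0.00984 to 2.05 ± 0.144 CPM (3.12, adjusted p = 8.31e-08).

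Of the 4 factors that hold back the α-cell programme, Pax4 had no listed region, and the 12 regions of Nkx6-1, Pdx1 and Nkx2-2 were higher in 5 cases, lower in 1 and neither in 6 (median -0.41). The shares of 41.7% higher and 8.33% lower stand beside 37% and 20.4% of all listed regions. At the 3 genes the region nearest the TSS had a negative fold change under the threshold in size: -0.50 for Nkx6-1 (adjusted p = 0.000447), -0.77 for Pdx1 (7.15e-06) and -0.32 for Nkx2-2 (0.00884). At the same genes, distal regions that were nearly closed in Control were the largest changes, with 3.57 for Nkx6-1, 2.43 for Pdx1 and 3.64 for Nkx2-2.

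Summed over their listed regions, accessibility at markers of other cells differed between the groups without overlap. Only regions called different between these same groups are listed, which by itself favours such a separation. The part of these markers in the results above was not tested. The shares of regions called are to be set beside 37% higher and 20.4% lower over all listed regions. In the 36 regions of β-cell markers (Ins1, Ins2, Mafa, Ucn3, Slc2a2, Nkx6-1 and Pdx1), 8 were higher (22.2%) and 13 lower (36.1%). Their summed levels were 750 to 919 CPM in Control and 394 to 599 CPM in Chd3/4Δβ. Being selected on the group contrast, these regions cannot check the label of the sort. Nkx6-1 and Pdx1 were also counted among the factors that hold back the α-cell programme. The 3 mesenchymal markers summed to 25.3 to 27.6 CPM in Control and 66.7 to 78.8 CPM in Chd3/4Δβ, with 7 of 9 regions higher (77.8%). For the endothelial markers these ranges were 55.7 to 61.4 and 84.2 to 106 CPM (3 of 10 regions higher, 30%), for the ductal markers 15.9 to 19.5 and 26.6 to 35.2 CPM (4 of 6, 66.7%), and for the immune markers, with regions at 1 of 3 genes, 4.45 to 6.53 and 7.71 to 10.6 CPM (1 of 2). The δ-cell marker Sst gave 2 to 3.49 and 4.05 to 8.21 CPM (2 of 2 regions higher, Hhex not listed), and of 5 acinar markers Cela1 alone was listed, at 0.589 to 1.03 and 1.9 to 2.11 CPM. Ppy, the PP-cell marker, had no listed region. In bulk nuclei, a larger share of cells with an open site and more open sites per cell cannot be told apart.

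How many regions count as gains or as losses moved with the scaling. With the library sizes behind the deposited CPM, 64.5% of all called regions were higher, against 53.2% with TMM, 48% with RLE and 47.2% with cyclic loess, which move the median of all regions by -0.21, -0.31 and -0.42 on the log2 scale. The members split into 11 higher and 6 lower with TMM or RLE and 8 and 5 with cyclic loess. Of the 16 called members, 10 were called in the same direction in every refit that gave them a value: 8 higher (Irx2, Pou3f4, both regions upstream of Gc, Gc exon 1, Gc at +82270 and the 2 called Dpp4 gains) and 2 lower (Gc at +30359 and Dpp4 at +11866).

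**Figure D4:**
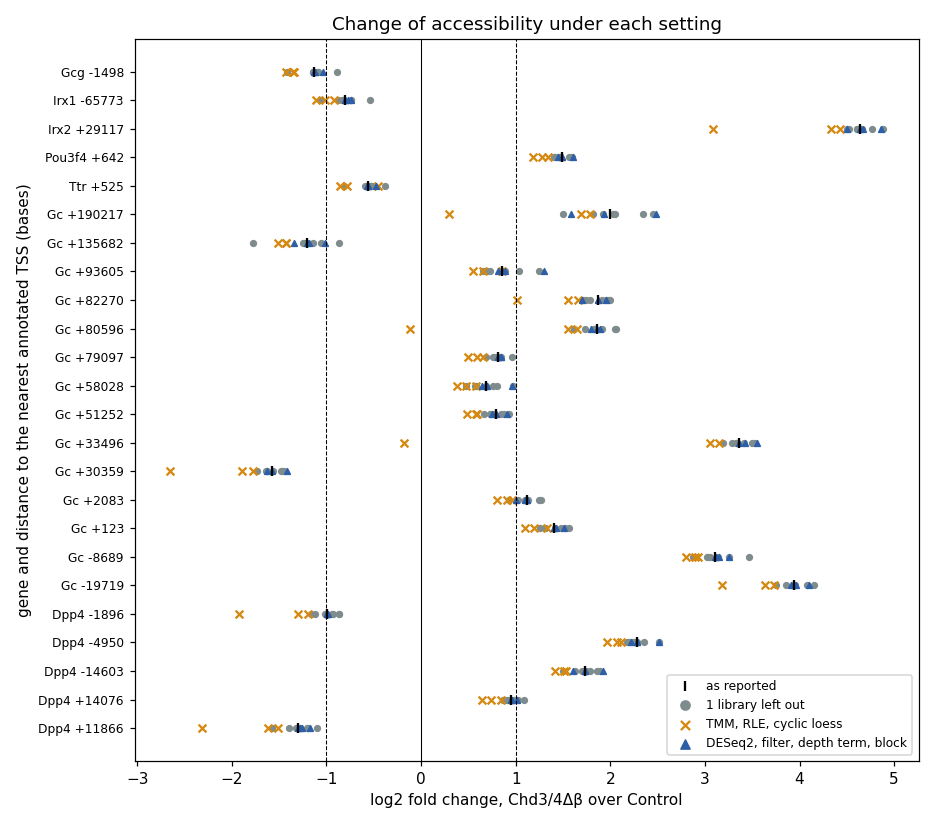
Log2 fold change of each member region under each way of fitting, Chd3/4Δβ over Control. Black bars are the values reported, grey dots leave out 1 library, orange crosses use TMM, RLE or cyclic loess and blue triangles use DESeq2, a filter, a depth term or the replicate block; dashed lines mark the fold threshold. Cyclic loess pulls 3 faint Gc regions to 0.30, -0.12 and -0.18.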

How the data were processed

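ATAC-seq libraries of sorted β cells (4 Control, 3 Chd3/4Δβ) were compared. The authors deposited 1 table with whole-number counts per region and library, not scaled, and the same deposited table gives CPM values. Count divided by CPM is constant within a library, and this library size was used in all fits. The deposited p-value and FDR columns served only to recover the number of regions tested (109675). The columns of the authors' own fold changes and statistics were not used. Fragments over the size limit were removed by the authors. Not given in the sources used here are aligner, peak caller, counter and Tn5 shift.

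The processing notes name GRCm39. However, 68.3% of 5839 promoter regions lie within 2000 bases of the RefSeq GRCm38.p6 gene start, so coordinates are given as deposited and read as GRCm38. Symbols, classes and distances are those of the deposited annotation, which uses the nearest transcript start.

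All 61288 regions were fitted in R 4.3.3 by the robust quasi-likelihood F-test of edgeR 4.0.16, with Benjamini-Hochberg adjustment over 109675 regions. A call needed an adjusted p under 0.05 and a log2 fold change of at least 1 in size. The standard error is the log2 fold change divided by the square root of F. Scripts were tested on simulated counts. Alternatives were TMM, RLE, cyclic loess with limma 3.58.1, DESeq2 1.42.0, a mean CPM of at least 1, a depth term, a replicate block, leaving out each library, no fold threshold and regions within 100000 bases of a TSS.

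Named in full per gene were the regions nearest the TSS, with the highest and lowest log2 fold change and with the highest mean CPM. For genes of other lists, the regions given are the one nearest the TSS, the one of largest change, or both. Not every gene of these lists has a region given. The members and lists were chosen with earlier results of these data known. Lists were described by counts, and no set test was run. Some genes of the lists are not reported here and were left out of the counts. Library sizes of 17629713 to 44026681 limit precision where counts are low, and no count in the table is 0. Sequences came from RefSeq windows that match 5 of the 7 genes.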

Additional observations from a re-analysis of the deposited data

How the results depend on the processing

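The number of member regions called higher (12) stayed between 8 and 17 and the number called lower (4) between 2 and 7 under the alternatives run. Leaving out each library in turn gave 11 to 14 higher and 2 to 5 lower, the 2 without Chd3/4Δβ replicate 1. Without a fold threshold 17 were higher and 7 lower, since every member passed the adjusted p alone. Over all regions, those called lower (12512) became 19441 with RLE factors and 27489 with no fold threshold, and those called higher (22692) became 14012 with cyclic loess. Cyclic loess, tested with limma, ended the calls of Gc at +80596 (-0.12) and Gc at +33496 (-0.18), both with an adjusted p of 1 and Control counts of 13 or fewer, and the cause was not tested. DESeq2 and the depth term, which also separates libraries with a lane label from those without, each gave 12 and 4 members. A filter at a mean CPM of 1, which tests fewer regions, gave 9 and 3, and regions within 100000 bases of a TSS gave 11 and 3.

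Samples of the same replicate number deviated together no more than others (correlations 0.068, -0.031 and -0.016, beside -0.122 to 0.071 for different numbers). This gave no sign that the numbers pair the libraries, but so few libraries cannot exclude it. With the replicate block 13 members were higher and 4 lower, and over all regions 22783 and 12599. Depth limits the faintest Control levels most: the distal Irx2 region rests on 2 to 11 counts there and Gc at +33496 on 1 to 6.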
